A study of Mus musculus with 13 samples.

Results

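Cell adhesion and junction genes were described in the liver RNA of this study by their levels. The 60 genes are the listed protein-coding genes of 11 families: claudins, occludin, zonula occludens proteins, connexins, cadherins, protocadherins, catenins, integrin alpha chains, integrin beta chains, integrin binding proteins and laminins. They were chosen by symbol from 11779 listed genes, of which 11396 are protein-coding. Cdh5, Itgam and Itgb2, which mark endothelial cells and leukocytes, were left out. The epithelial adhesion gene Epcam fits the choice by symbol but is not among the genes analysed here.

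The study depleted LL35 (Falcor), a murine long non-coding RNA, with antisense oligonucleotides (ASOs) joined to GalNAc, a sugar that directs them to hepatocytes. Livers were taken from Balb/c mice on day 5 after injection of a mix of 5 LL35 ASOs (group Liver LL35 ASO, 3 mice) or of 1 ASO against firefly luciferase (group Liver Luc ASO, 3 mice). Both groups thus received GalNAc-conjugated ASOs, and uninjected mice were not analysed here. The dose of the LL35 ASOs was 150 mg/kg, which the labels state for each ASO and the methods state for the mix as a whole. The dose of the Luc ASO is not given in the sources used here. The main text of the paper gives 5 conjugated LL35 ASOs, while its supplementary list of ASOs for mice names fewer. The ages of the mice are not given in the sources used here, and cultured AML12 cells, also part of the design, were left aside.

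The value of each gene is the authors' mean normalized count, a single average over the compared livers of both groups. It carries no value for single mice, so no SD, no n behind a spread and no comparison between Liver LL35 ASO and Liver Luc ASO can be given here, and the levels below describe the livers of both groups together. The reads per mouse, and so the depth behind each value, are unknown. Where genes are set side by side, the mean normalized count was divided by the length of the gene's exons in kb, and "level per kb" means this quantity. In whole liver, fewer cells of a type and less RNA per cell cannot be told apart.

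Epithelial cells hold together through tight junctions, which seal the space between cells and in the liver close off the bile canaliculus, and through adherens junctions, in which cadherins bind across cells and catenins tie them to actin. Gap junctions, built of connexins, are channels that pass ions and small metabolites between neighbouring hepatocytes. Integrins, each a pair of an alpha and a beta chain, bind cells to the matrix, and laminins, trimers of an alpha, a beta and a gamma chain, are main components of basement membranes. The sinusoid, the capillary of the liver lobule, is known for lacking a continuous basement membrane.

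The levels were dominated by connexins. Gjb1 and Gjb2 together held 49.4% of the summed level per kb of all 60 genes, and the connexin family as a whole held 50.8%. Without division by length the pair held 26.7% and the family 28.0%, still the highest of the families. Per kb of exon, claudins followed with 12.4%, catenins with 9.74% and integrin beta chains with 9.20%. The 7 protocadherins held 3.02% of the sum, the 10 laminin chains 1.76%, occludin 1.12% and the integrin binding proteins 0.589%.

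Most members were low beside other genes. The median level per kb was 25.0 over the 60 genes and 52.1 over the 11385 listed protein-coding genes with an exon length, so the median member stood at percentile 29.0, that is, above 29.0% of these genes. Of the 60 genes, 21 (35%) lay above the median of all. The range was wide, from 1.69 per kb for Pcdh7 to 2533 per kb for Gjb1, and members were gathered at the low end. The lowest 10% of all genes held 15 members, the highest 10% held 5, and an even spread would place 6 in each. The members are also longer, with a median of 6070 exon bases against 4597, and their median mean normalized count without division by length was 134.8 against 243.8.

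**Figure D1:**
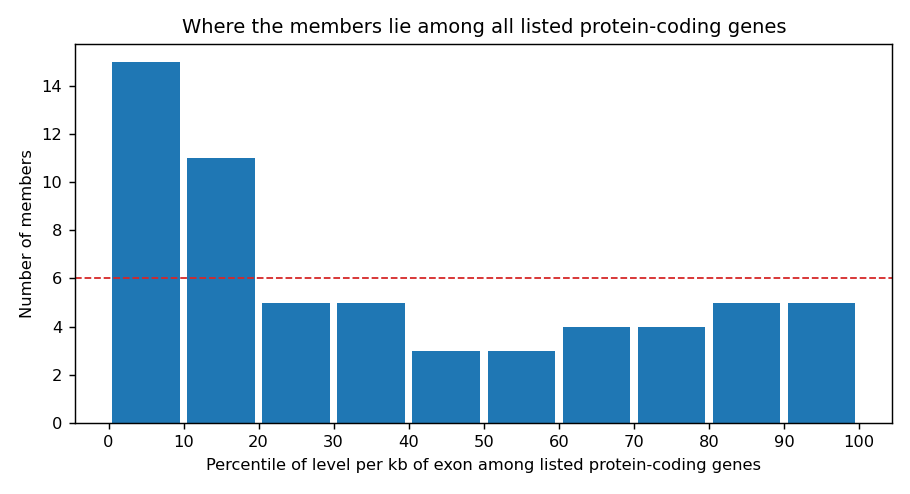
Number of members (vertical axis) in each successive 10% of the listed protein-coding genes ordered by level per kb of exon (horizontal axis, percentile), with a dashed line at the 6 members per bar of an even spread. The 2 lowest bars hold 15 and 11 members, and no other bar is above 5.

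The share of each family that is listed also differed. RefSeq names 192 mouse protein-coding genes that fit the choice of symbols, and 60 of them (31.3%) are listed. Of the laminins 10 of 11 are listed, as are 18 of 25 integrin chains. In contrast, 6 of 35 claudins, 5 of 16 connexins and 4 of 22 cadherins are. Of the 57 protocadherins of the alpha, beta and gamma clusters, 4 are listed, and of the 12 other protocadherins 3 are. The other genes are not among those analysed here, and the lowest mean normalized count of a listed protein-coding gene was 15.6.

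**Figure D2:**
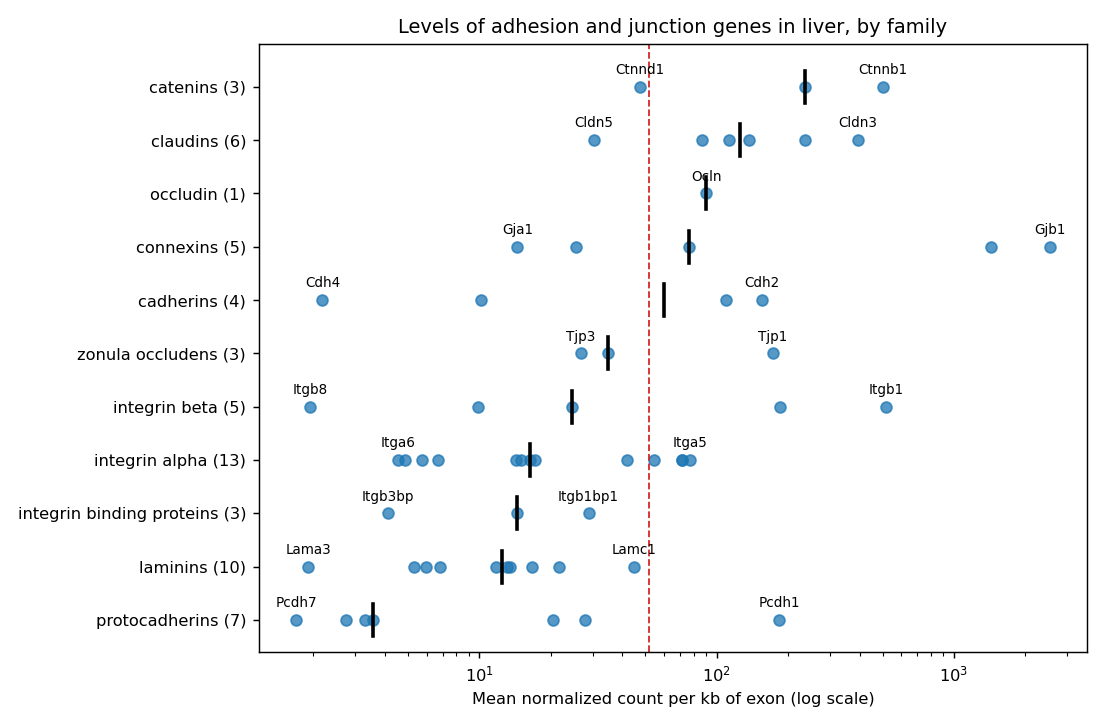
Level per kb of exon (horizontal axis, mean normalized count per kb, log scale) of each of the 60 genes, by family, with the number of listed members in brackets. Points are genes, black bars are family medians, the dashed line is the median of all listed protein-coding genes at 52.1 per kb, and the highest and lowest member of each family are named. Medians run from 3.56 per kb for protocadherins to 235 per kb for catenins.

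Connexins formed 2 tiers. Gjb1 (ENSMUSG00000047797), which encodes connexin 32, the main gap junction protein of hepatocytes, reached 4323 on the scale of mean normalized counts and 2533 per kb, above 98.6% of the listed protein-coding genes. Gjb2 (ENSMUSG00000046352), which encodes connexin 26, the other hepatocyte connexin, reached 3458 as a mean normalized count and 1437 per kb, at percentile 97.6. These 2 genes held 97.2% of the connexin sum. Gja4, which encodes the endothelial connexin 37, followed at 76.2 per kb, so Gjb2 stood 18.9 times above it per kb of exon, and 39.7 times per kb of coding sequence. Gjc3 was at 25.5 per kb. Gja1, which encodes the widely expressed connexin 43, was at 14.5 per kb. The order of these lower connexins depended on the length used. Per kb of coding sequence Gjc3 was at 138, Gja1 at 129.5 and Gja4 at 128.5. The annotated exons of Gja1 cover 10257 bases, most of them outside the coding sequence, and per kb of its transcript with the longest coding sequence its level was 46.6.

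The order of the 2 leading connexins rests on length too. Gjb1 was 1.76 times Gjb2 per kb of exon and 1.25 times Gjb2 without division by length. Per kb of coding sequence they were level, at 5092 for Gjb1 and 5100 for Gjb2.

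Gjb1 and Gjb2 held 49.4% of the summed level per kb of exon and 26.7% without division by length. The upstream sequences of these genes and of Itgb1, the 3 highest members per kb of exon, are shown. They are the 250 bases before an annotated start in RefSeq, build GRCm38.p6, read 5′ to 3′ on the gene's strand. The table holds windows for 39 of the 60 members. Capitals mark the motifs searched on both strands: the HNF1 half-site GTTAAT, the GC box GGGCGG, the TATA box TATAAA, the E-box CAGGTG and the FOXA core TGTTTAC. The marked matches do not overlap. HNF1 and FOXA are families of liver transcription factors. Gjb1 has 4 annotated starts, numbered 1 to 4 along the chromosome, of which starts 2 and 4 are printed and the windows of the others hold none of the motifs. The Gjb1 windows are chrX:101376985-101377234 and chrX:101383482-101383731 on the plus strand, that of Gjb2 is chr14:57104703-57104952 on the minus strand, and that of Itgb1 is chr8:128685404-128685653 on the plus strand.
Gjb1, start 2: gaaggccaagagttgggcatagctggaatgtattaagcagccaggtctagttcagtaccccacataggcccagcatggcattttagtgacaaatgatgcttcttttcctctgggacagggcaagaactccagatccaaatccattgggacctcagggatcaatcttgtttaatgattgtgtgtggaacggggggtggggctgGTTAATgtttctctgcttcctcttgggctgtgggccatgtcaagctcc
Gjb1, start 4: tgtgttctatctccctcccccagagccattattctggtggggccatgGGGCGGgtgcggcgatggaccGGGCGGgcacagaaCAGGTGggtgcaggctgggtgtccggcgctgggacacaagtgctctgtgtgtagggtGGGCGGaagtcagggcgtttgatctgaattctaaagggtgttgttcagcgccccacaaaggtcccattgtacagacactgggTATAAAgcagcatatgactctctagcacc
Gjb2: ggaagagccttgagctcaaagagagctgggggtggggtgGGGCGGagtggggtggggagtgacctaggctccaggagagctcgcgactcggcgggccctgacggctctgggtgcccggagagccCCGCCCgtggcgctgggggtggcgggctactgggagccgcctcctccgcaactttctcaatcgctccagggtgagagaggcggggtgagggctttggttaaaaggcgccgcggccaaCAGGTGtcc
Itgb1: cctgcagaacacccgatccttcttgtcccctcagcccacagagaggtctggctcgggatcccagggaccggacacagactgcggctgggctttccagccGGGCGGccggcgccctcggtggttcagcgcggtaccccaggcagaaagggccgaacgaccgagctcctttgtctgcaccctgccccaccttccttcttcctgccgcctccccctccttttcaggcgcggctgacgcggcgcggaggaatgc

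The windows of Gjb1 differed in composition from that of Gjb2. The window of Gjb1 start 2 has 50% G and C and 1 CpG, and holds 1 HNF1 half-site and no other motif searched. That of start 4 has 58.4% G and C and 10 CpGs, and holds 3 GC boxes, 1 TATA box and 1 E-box. The Gjb2 window has 69.2% G and C and 18 CpGs, with 2 GC boxes and 1 E-box. The Itgb1 window, at 68% G and C with 21 CpGs, holds 1 GC box.

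Over the 52 windows of the 39 members, the median was 58.4% G and C and 10 CpGs, beside 59.6% and 15 over the 11772 windows of listed protein-coding genes. A GC box was in 42.3% of member windows, beside 56.5% of windows of listed genes and 32.7% of all 32851 windows. The E-box was in 23.1%, 15.4% and 17.2% of these windows, respectively. The HNF1 half-site was in 3 member windows (5.77%, beside 4.47% and 6.43%), those of Cldn1, Cldn14 and Gjb1. The TATA box was in 4 member windows (7.69%, beside 6.82% and 12.4%), those of Cldn2, Ctnnb1, Ctnnd1 and Gjb1. None of the 52 windows holds the FOXA core, which 2.31% of windows of listed genes and 3.17% of all windows do. These are counts of letters in short windows and say nothing of binding.

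Among the tight junction genes, claudins, the strands that set how permeable the seal is, were the second family by summed level per kb of exon, at 996 per kb. Per kb of transcript the catenins stood above them (1177 against 1134), and without division by length the catenins and both kinds of integrin chain did. Cldn3 was at 393 per kb and Cldn12 at 236 per kb. Cldn2, which forms cation pores, was at 137 per kb, and Cldn1, a sealing claudin, at 113 per kb. Cldn14 was at 86.7 per kb, and Cldn5, the claudin of endothelium, was lowest at 30.3 per kb. So 5 of the 6 claudins lay above the median of all listed protein-coding genes per kb of exon and Cldn5 did not. Without division by length Cldn14 lay below the median too, with a mean normalized count of 185 against 243.8. Cldn3 has a short transcript, with 1259 exon bases. Without division by length its mean normalized count was 495, below the 999 of Cldn12 and the 548 of Cldn1, and per kb of coding sequence Cldn12 led with 1365 against 753 for Cldn3.

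Per kb of exon, the other tight junction genes among the members were lower than Cldn3 and Cldn12. Without division by length Tjp1, with a mean normalized count of 1345, stood above every listed claudin, of which Cldn12 was highest at 999. Ocln, which encodes the 4-pass membrane protein occludin, was at 90.3 per kb. Tjp1, which encodes the scaffold ZO-1, was at 172 per kb. Tjp3 was at 26.7 per kb. Tjp1 was 1.91 times Ocln per kb of exon, 1.05 times per kb of coding sequence and 3.53 times without division by length.

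The cadherins were led by 2 genes. Cdh2, N-cadherin, was at 155 per kb and Cdh1, E-cadherin, at 109 per kb, and hepatocytes are known to carry both. Cdh2 was thus 1.42 times Cdh1 per kb of exon, 2.29 times per kb of transcript and 2.44 times per kb of coding sequence, so Cdh2 was higher under each length and the size of the gap was not fixed. Cdh24 was at 10.2 per kb and Cdh4, R-cadherin, at 2.18 per kb, at percentiles 11.8 and 0.571. The mean normalized count of Cdh4 was 15.8, close to the lowest in the table.

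The catenins, which link cadherins to actin, had the highest family median, 235 per kb. Ctnnb1, which encodes beta-catenin, the partner of cadherin tails and also a transducer of Wnt signals, was at 501 per kb. Ctnna1, alpha-catenin, which carries the link to actin, was at 235 per kb. The sum of Cdh1 and Cdh2 was 264 per kb, between these values, but per kb of transcript it was 371, below the 404 of Ctnna1. Ctnnd1, p120-catenin, which holds cadherins at the membrane, was at 47.7 per kb, a value that is uncertain. The GENCODE M21 annotation gives only 38.8% of its exon bases to Ctnnd1 alone on its strand, and reads that fit more than 1 gene are not counted in the scheme the methods name. Ctnna1 was 4.92 times Ctnnd1 per kb of exon and 1.91 times per kb of exon bases shared with no other gene.

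Protocadherins, cadherin relatives best known from neurons, mostly lay below the median of all listed protein-coding genes per kb. Pcdh1 was the exception at 183 per kb, percentile 82.1, and held 75.5% of the family sum. Pcdh12, a protocadherin of endothelium, was at 27.8 per kb. Of the gamma cluster, Pcdhgc3 was at 20.5 per kb, Pcdhgb6 at 3.56, Pcdhgb5 at 3.30 and Pcdhgb4 at 2.74 per kb. The genes of this cluster share their last exons, so the exon bases that belong to 1 gene alone were 54.8% to 68.5% of each, and their levels are uncertain. Pcdh7 was the lowest of all members at 1.69 per kb. The mean normalized counts of Pcdhgb4, Pcdhgb5, Pcdhgb6 and Pcdh7, from 15.9 to 22.2, were close to the lowest in the table.

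Per kb of exon and of transcript, integrins were led by 2 beta chains. Itgb1 (ENSMUSG00000025809), the beta chain that pairs with most alpha chains, reached 2114 as a mean normalized count and 518 per kb. It was the third highest of the 60 genes per kb of exon and held 70.0% of the beta sum. Ctnnb1 stood above Itgb1 per kb of transcript (718 against 554) and without division by length (2601 against 2114). Per kb of coding sequence Ctnnb1 (1110) and Cldn12 (1365) stood above Itgb1 (883). Itgb5, a partner of Itgav in binding vitronectin, was at 185 per kb. Itgb3, known from platelets and endothelium, was at 24.6 per kb, Itgb7, a leukocyte chain, at 9.84 per kb, and Itgb8 at 1.94 per kb. The highest and lowest beta chains thus differed 267-fold per kb of exon, 94.8-fold per kb of coding sequence and 98.7-fold without division by length.

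All 13 alpha chains lay below Itgb1 and Itgb5 per kb of exon, and the other beta chains lay within or below their range. Itga5, of the fibronectin receptor, was at 77.2 per kb, Itgav, of the vitronectin receptors, at 71.8 per kb and Itga9 at 71.5 per kb. Itga1, of a collagen receptor, was at 54.4 per kb and Itgal, a leukocyte chain, at 41.8 per kb. The highest held 19.2% of the alpha sum, so no alpha chain led as Itgb1 led the beta chains. The order of the upper 4 rests on length: Itgav led per kb of transcript at 109, and Itga1, with 18599 exon bases, led per kb of coding sequence at 286. By that length Itga1 stood above Itgb5, which was at 269. Without division by length Itga1 (1013) and Itgav (771) both stood above Itgb5 (658). The next were Itga7 at 17.1, Itga3 at 16.4, Itga8 at 14.9 and Itga2b, the platelet chain, at 14.3 per kb. Itga10 was at 6.68 per kb, with 66.5% of its exon bases its own. Itga4, which homes leukocytes, was at 5.75 per kb. The lowest alpha chains were Itga2 at 4.85 per kb and Itga6 at 4.56 per kb. Itga6, a chain of laminin receptors, stood below Itga5, which was 16.9 times higher per kb of exon and between 8.78 and 9.59 times higher per kb of transcript, per kb of coding sequence and without division by length.

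Itgb1 was set beside its alpha partners as a sum. The 11 listed partners added up to 345 per kb, so Itgb1 alone was 1.50 times their sum. The excess depended on length, since Itgb1 was 1.18 times the sum per kb of transcript, 0.890 times per kb of coding sequence and 0.651 times without division by length. Several of these alpha chains also pair with other beta chains. The 3 integrin binding proteins, which fit the choice by symbol but are not integrin chains, were at 28.8 per kb for Itgb1bp1, which binds the tail of the beta 1 chain, 14.4 per kb for Itgb1bp2 and 4.12 per kb for Itgb3bp.

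**Figure D3:**
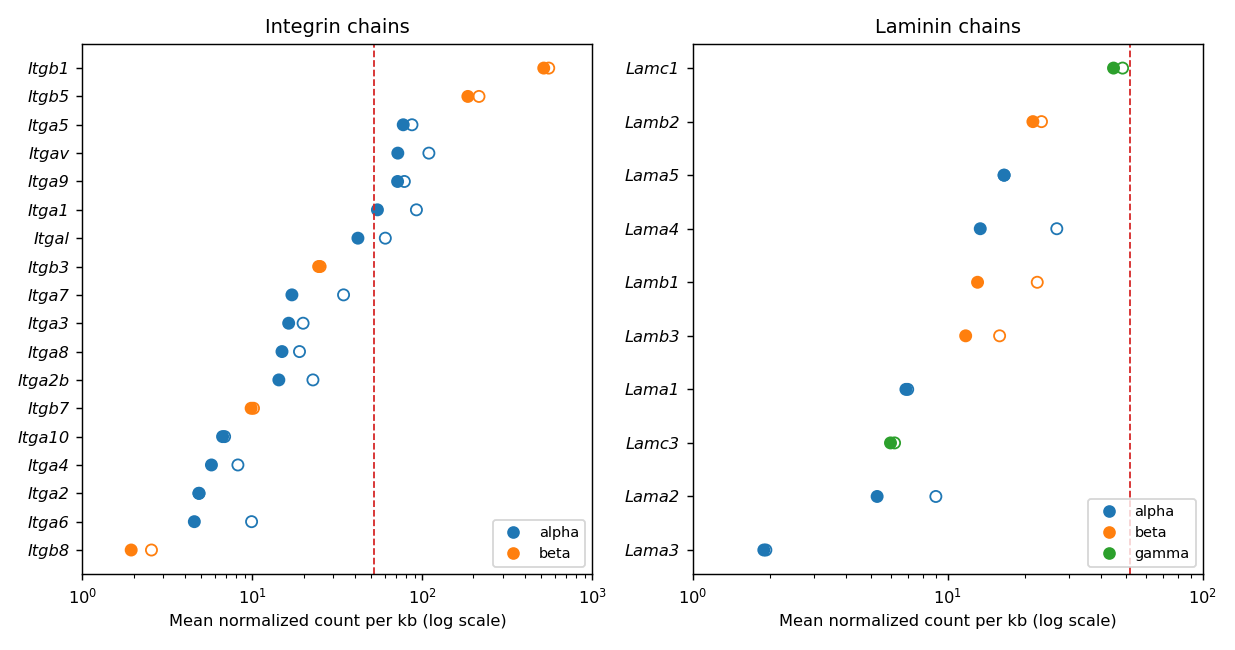
Level (horizontal axis, mean normalized count per kb, log scale) of each integrin chain (left) and laminin chain (right). Filled points are per kb of exon, open points per kb of the longest-coding transcript, and the dashed line is the median of all listed protein-coding genes per kb of exon. Itgb1 and Itgb5 lie above every alpha chain, and every laminin chain lies below the dashed line.

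Laminins were low as a family but broadly represented. All 10 chains lay below the median of all listed protein-coding genes per kb. Without division by length Lamc1 lay above it, with a mean normalized count of 370 against a median of 243.8. Lamc1, the gamma chain of most laminins, was highest at 44.7 per kb and held 31.7% of the laminin sum. Of the beta chains, Lamb2 was at 21.6, Lamb1 at 13.1 and Lamb3 at 11.8 per kb. Lamb2 was 1.65 times Lamb1 per kb of exon and 1.04 times per kb of transcript. Of the alpha chains, Lama5 was at 16.6 and Lama4, of vessel walls, at 13.4 per kb, an order that turned per kb of transcript, where Lama5 was 0.621 times Lama4. Lama1 was at 6.85, Lama2 at 5.28 and Lama3 at 1.90 per kb, and the second gamma chain, Lamc3, was at 5.96 per kb. Itgb1 stood 11.6 times above Lamc1 per kb of exon and 5.72 times without division by length.

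The summed levels of the 3 laminin chain classes were close per kb of exon, though their order was not stable. A laminin takes 1 chain of each class. The alpha chains added up to 44.1 per kb, the beta chains to 46.4 per kb and the gamma chains to 50.6 per kb, so the highest sum was 1.15 times the lowest. Per kb of transcript the gamma chains were lowest, at 54.7 against 61.3 for the alpha and 61.7 for the beta chains. Per kb of coding sequence the highest was 1.29 times the lowest, and without division by length 1.55 times. The comparison of class sums was chosen after the values were seen. Lamb1 alone was 0.293 times Lamc1 per kb.

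Per kb of exon, other genes of the same structures had a higher median than the 60 members as a whole. By that length it was not higher than the claudins, the catenins or occludin. The median of these other genes was not computed for other lengths, and single genes moved. Per kb of transcript Nectin3 was at 229 and Jam2 at 301, beside 55.0 and 60.4 per kb of exon. Of 40 genes on a list of junction, integrin adaptor and basement membrane genes outside the choice by symbol, all 40 are listed and 29 lay above the median of all listed protein-coding genes. Their median level was 80.7 per kb, at percentile 63.3. All 11 adherens junction and desmosome genes were above the median of all listed protein-coding genes, from Nectin3 at 55.0 to Nectin1 at 311 per kb. The desmosome genes Dsp, Dsg2 and Dsc2 were at 120, 149 and 165 per kb. Of the 12 tight junction genes 6 were above it, led by F11r, which encodes the junctional adhesion molecule JAM-A, at 346 per kb, while Jam3 and Marveld3 were at 6.21 and 5.24 per kb. Of the 10 integrin adaptors 6 were above it. Of the pairs of related adaptors, Tln1 was at 210 and Tln2 at 14.4 per kb, and Fermt2 was at 214, Fermt3 at 24.7 and Fermt1 at 2.86 per kb. Of the 7 basement membrane genes 6 were above it, with Hspg2, which encodes perlecan, at 81.1, Col4a1 at 81.2 and Nid1 at 60.2 per kb, each above Lamc1, while Nid2 was at 9.39 per kb.

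The tissue label was checked against cell type markers. The 5 hepatocyte markers lay between 4262 per kb for Serpina1c and 519843 per kb for Alb, so Gjb1 stood below each of them. Kupffer cell markers lay between 59.9 and 791 per kb, endothelial markers between 41.4 and 248 per kb, and stellate cell markers between 13.8 and 265 per kb. Of the cholangiocyte markers, Krt7, Krt19 and Epcam are not among the genes analysed here, and Sox9 and Spp1 were at 9.94 and 91.9 per kb. Of the leukocyte markers, 4 of 5 are listed, between 4.56 and 44.7 per kb, with the member Itgal at 41.8 per kb among them. How much of each member's level comes from each cell type was not tested.

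**Figure D4:**
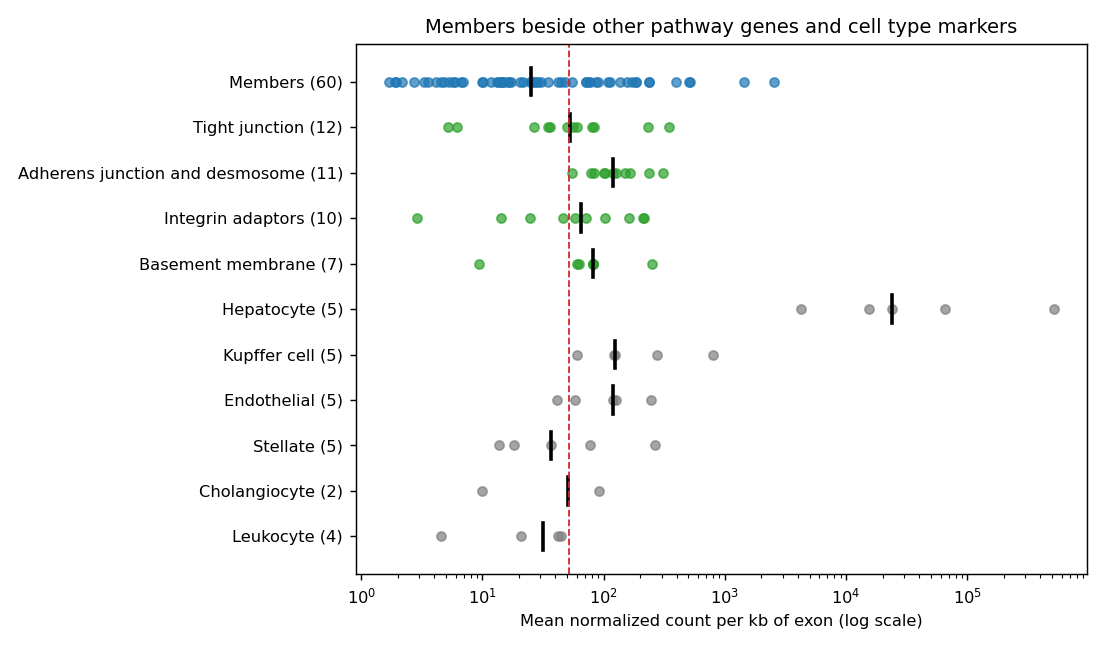
Level per kb of exon (horizontal axis, mean normalized count per kb, log scale) of the 60 members (blue), 4 lists of other pathway genes (green) and 6 lists of cell type markers (grey), with the number of listed genes in brackets. Points are genes, black bars are medians and the dashed line is the median of all listed protein-coding genes. The members spread from 1.69 to 2533 per kb, below the lowest hepatocyte marker at 4262 per kb.

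The choice of length moved single genes more than the group. Per kb of coding sequence 20 of the 60 members lay above the median of all listed protein-coding genes, per kb of transcript 19, and per kb of exon 21. Of the 60, 13 had a higher percentile per kb of coding sequence than per kb of exon. Gja1 moved from percentile 17.1 to 42.4 and Cldn1 from 72.0 to 86.3. In the other direction, Itga5 moved from percentile 61.9 to 40.3, Gja4 from 61.5 to 42.2, Tjp1 from 81.1 to 62.0 and Itgb5 from 82.3 to 63.2. Over the 4 lengths Ctnnd1 moved most, between percentile 38.5 per kb of transcript and 73.7 per kb of exon bases of its own.

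**Figure D5:**
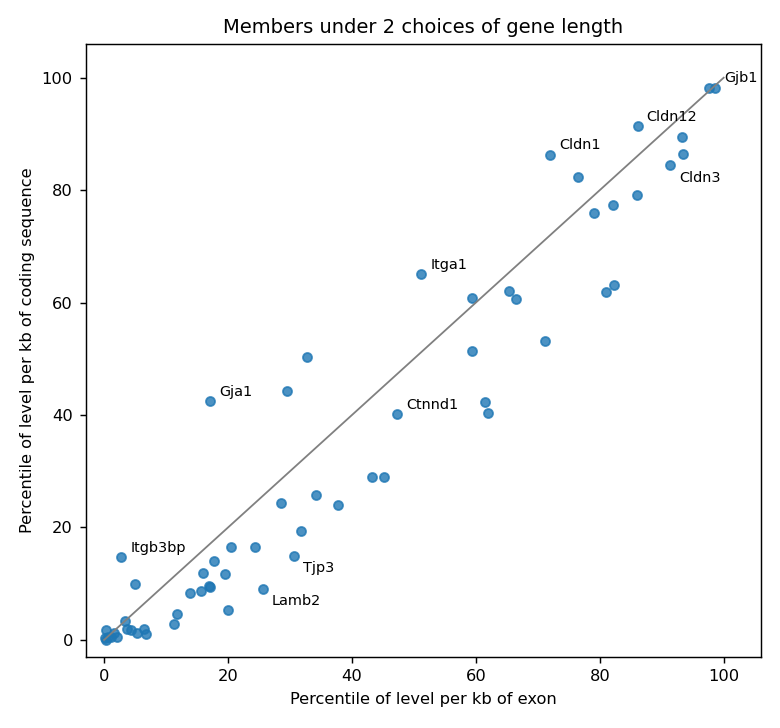
Percentile of each member among listed protein-coding genes per kb of coding sequence (vertical axis) against its percentile per kb of exon (horizontal axis). Points are genes, the line marks equal percentiles, and Gja1, Itga1 and Cldn1 are among the 13 points above it.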

How the data were processed

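Liver RNA was made into directional libraries after depletion of ribosomal RNA and sequenced. According to the methods, the authors aligned reads with STAR 2.5.3a, counted them per gene on an Ensembl annotation and normalized them with DESeq2 (RLE size factors). The genome build, the annotation release and the strand setting are not given in the sources used here. The authors' deposited table holds 1 row per gene. Of it, only the mean normalized count was used, a signal that the authors made by dividing counts by size factors and averaging over the compared livers. The other numeric columns hold the authors' own comparison of the 2 groups (log2 fold change, its standard error, Wald statistic, p-value and adjusted p-value) and were not used. Depth per sample is unknown, so no interval is given and no test was run.

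Exon, transcript and coding lengths came from GENCODE release M21, in which 11754 of the 11779 gene identifiers and all 60 members were found. Exon length is the union of all exons, transcript length that of the transcript with the longest coding sequence. A percentile is the share of listed protein-coding genes with a lower level. Symbols of other lists were matched in the table, 1 of them through its name in M21. Upstream windows came from RefSeq (GRCm38.p6). Genes were named by a rule: all members of families of up to 5, the 5 highest and 2 lowest of larger ones, all laminins and the partner pairs; further members are named where a sentence completes a family. The members and lists were chosen with earlier results of these data known. Alternatives changed the length, a minimum mean normalized count of 50, the background and the genes left out; 2 lengths were added after the data were seen. The result of 1 member is not reported here. On made-up values, only the arithmetic of the division by length, of the percentile and of the merging of exons was checked. The software was Python 3.11.15, pandas 2.3.3 (with numpy 2.4.6) and matplotlib 3.10.9.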

Additional observations from a re-analysis of the deposited data

How the results depend on the processing

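Of the 89 alternative values computed, 77 stayed on the same side of 1, for a ratio, and within 1.5 times the value given in the report. The median level per kb moved from 25.0 to 53.9 per kb of coding sequence, where the median of all listed protein-coding genes was 168, and to 46.2 with a minimum mean normalized count of 50, which removes 16 of the 60 members (26.7%, beside 14.7% of all). The share of the summed level held by Gjb1 and Gjb2 moved from 49.4% to 26.7% without division by length, a value computed after seeing the data. Of the ratios among these 89 values, 2 turned. Gjb1 over Gjb2, 1.76 per kb of exon, was 0.999 per kb of coding sequence, and Itgb1 over the sum of its alpha partners, 1.50 per kb of exon, was 0.890 per kb of coding sequence and 0.651 without division by length. Cdh1 over Cdh2, 0.705 per kb of exon, was 0.410 per kb of coding sequence, 0.400 without division by length and 0.437 per kb of transcript. Lamb1 over Lamc1, 0.293 per kb of exon, was 0.463 per kb of transcript. Orders outside the 89 values turned too. Cldn3 over Cldn12, 1.66 per kb of exon, was 0.552 per kb of coding sequence. Gja4 over Gjc3, 2.98 per kb of exon, was 0.932 per kb of coding sequence. Lama5 over Lama4, 1.24 per kb of exon, was 0.621 per kb of transcript. The percentile of the median member lay between 21.7 and 37.3. Of the 10 families with at least 3 members, 7 kept their highest member per kb of coding sequence and 8 without division by length. The lengths per transcript and per own exon bases were chosen after seeing the data.

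The table gives 1 mean over both groups, so the planned fit between groups and its runs without each mouse could not be made. No paired analysis was possible because no values of single mice were used. The annotation behind the counts is unknown, and a gene whose true exons differ from M21 would have a level per kb off by that factor. Genes under the floor of the table are not analysed here, so family medians cover listed members alone.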
